A study of Mus musculus with 16 samples.

Results

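The genes described here make, use and regenerate glutathione or remove superoxide and peroxides. They comprise glutathione peroxidases, glutathione transferases, enzymes of glutathione synthesis, the cystine importer Slc7a11, the sensor pair Nfe2l2 and Keap1 with its target Nqo1, superoxide dismutases, catalase and 3 enzymes of the pentose phosphate pathway. The list held 36 genes chosen by function. A probe set annotated to that gene alone was found for 35 of them, the exception being G6pdx, which was not analysed here. Of the 35, 29 exceeded log2 4, an intensity of 16, on 2 or more arrays and were tested, among 10916 genes tested in all. Values are log2 of the deposited array intensity, 1 array is 1 retinal RNA sample, and the brightest probe set stands for each gene.

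The study asked how retinas of BALB/c mice, an albino strain, respond to bright light when Nxnl1 is missing. Nxnl1, a photoreceptor gene of the thioredoxin family, encodes the rod-derived cone viability factor. Nxnl1-/- mice were compared with wild-type mice of the same strain, 11 to 16 weeks old and of both sexes, all kept 16 h in darkness, lit for 1 h and returned to darkness for 24 h before the neural retina was freed of pigment epithelium. Nxnl1-/- retinas gave 3 arrays for 50 lux, 3 for 2500 lux and 2 for 5000 lux, and wild-type retinas gave 2, 3 and 3 arrays for these doses. The 50 lux groups are the controls for light, since this was also the level of the housing. The labels call the arrays biological replicates and do not say whether an array holds 1 animal or a pool. The sources used here do not give the extent of the Nxnl1 deletion.

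Glutathione is a small peptide thiol that cells keep at high concentration. Glutathione peroxidases spend it to reduce hydrogen peroxide and lipid peroxides, glutathione transferases attach it to reactive aldehydes and foreign compounds, and glutathione reductase restores it with NADPH, which the pentose phosphate pathway supplies. NRF2, the protein of Nfe2l2, turns many of these genes on through antioxidant response elements once KEAP1 stops directing it to degradation. Photoreceptor outer segments are rich in polyunsaturated lipids and oxygen and are prone to lipid peroxidation in bright light, and Müller glia hold much of the glutathione of the retina.

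Nxnl1 itself averaged log2 2.24 ± 0, 2.45 ± 0.36 and 2.57 ± 0.50 in Nxnl1-/- retinas at 50, 2500 and 5000 lux (SD, n = 3, 3 and 2), against 7.57 ± 0.06, 6.44 ± 0.53 and 6.06 ± 0.39 in wild-type retinas (n = 2, 3 and 3). It was at least 11.9-, 5.43- and 4.17-fold lower in Nxnl1-/- retinas at the 3 doses (limma, adjusted p = 4.4e-06, 4.1e-05 and 0.00082), so every array followed its genotype label. All 11 rod markers were above log2 4, as the tissue label requires, and 10 of 14 pigment epithelium markers were too, although Best1, Mlana, Cdh3 and Tyr never were. Arrays of a group correlated at 0.968 to 0.9947 over the 23320 probe sets tested. Array medians over all probe sets lay between 14.4 and 15.8 intensity units, at most 15.1 on the 50 lux arrays and at least 15.3 on the bright-light arrays. Wild-type replicate 2 at 5000 lux stood apart by its lens crystallins and other lens markers, whose summed intensity was 68800, against 66.5 and 153 on the other arrays of its group. Lens markers summed to 1740 to 6890, 190 to 6130 and 108 to 4220 in Nxnl1-/- retinas at 50, 2500 and 5000 lux, and to 74.9 to 170 and 68.4 to 76.6 in wild-type retinas at 50 and 2500 lux.

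After bright light the genes split. Mgst1, which encodes a membrane-bound transferase and peroxidase, rose in both genotypes at both doses, by 3.36- to 8.99-fold. Sod2, the mitochondrial superoxide dismutase, rose by 1.37- to 1.63-fold in 3 of the 4 light comparisons. In Nxnl1-/- retinas at 2500 lux the peroxidases Gpx3 and Gpx8, the cystine importer Slc7a11 and Nfe2l2 also rose, while the transferases Gstp1, Gstt1 and Gstk1 fell. In wild-type retinas at 2500 lux Gclm, which encodes a subunit of the rate-limiting enzyme of glutathione synthesis, rose and Gpx4, the lipid peroxidase, fell.

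In Nxnl1-/- retinas at 2500 lux, 6 of the 29 tested genes were higher and 3 lower than at 50 lux, or 20.7% and 10.3%, beside a background of 8.87% higher and 13.5% lower among all 10916 genes. The share that was higher stood above the background and the share that was lower below it. Among the 6 is Slc7a11, which exceeded log2 4 in that group alone and so entered the test through the group in which it is high. At 5000 lux 2 were higher and 0 lower in Nxnl1-/- retinas, 6.9% and 0%, beside 4.6% and 7.81% of all genes. In wild-type retinas 3 were higher and 1 lower at 2500 lux, 10.3% and 3.45%, beside 8.93% and 5.13%. At 5000 lux 2 were higher and 0 lower in wild-type retinas, 6.9% and 0%, beside 7.56% and 5.27%. These last 3 comparisons had shares of the order of the background or below it. The median log2 change of the 29 genes was 0.06 and -0.01 in Nxnl1-/- retinas at 2500 and 5000 lux, where the median of all genes was -0.08 and -0.09. In wild-type retinas it was 0.15 and 0.16, where the median of all genes was 0.04 and 0.00404. In each genotype the 2500 and 5000 lux comparisons share their 50 lux arrays, so their values are given side by side and are not independent. In all, 11 of the 29 genes passed in at least 1 of the 4 light comparisons and 18 in none. At an unadjusted p under 0.05 the counts were 13 and 8 in Nxnl1-/- retinas at 2500 and 5000 lux and 8 and 8 in wild-type retinas. A pass means an adjusted p under 0.05 from limma, with the Benjamini-Hochberg adjustment over all 23320 probe sets tested.

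**Figure D1:**
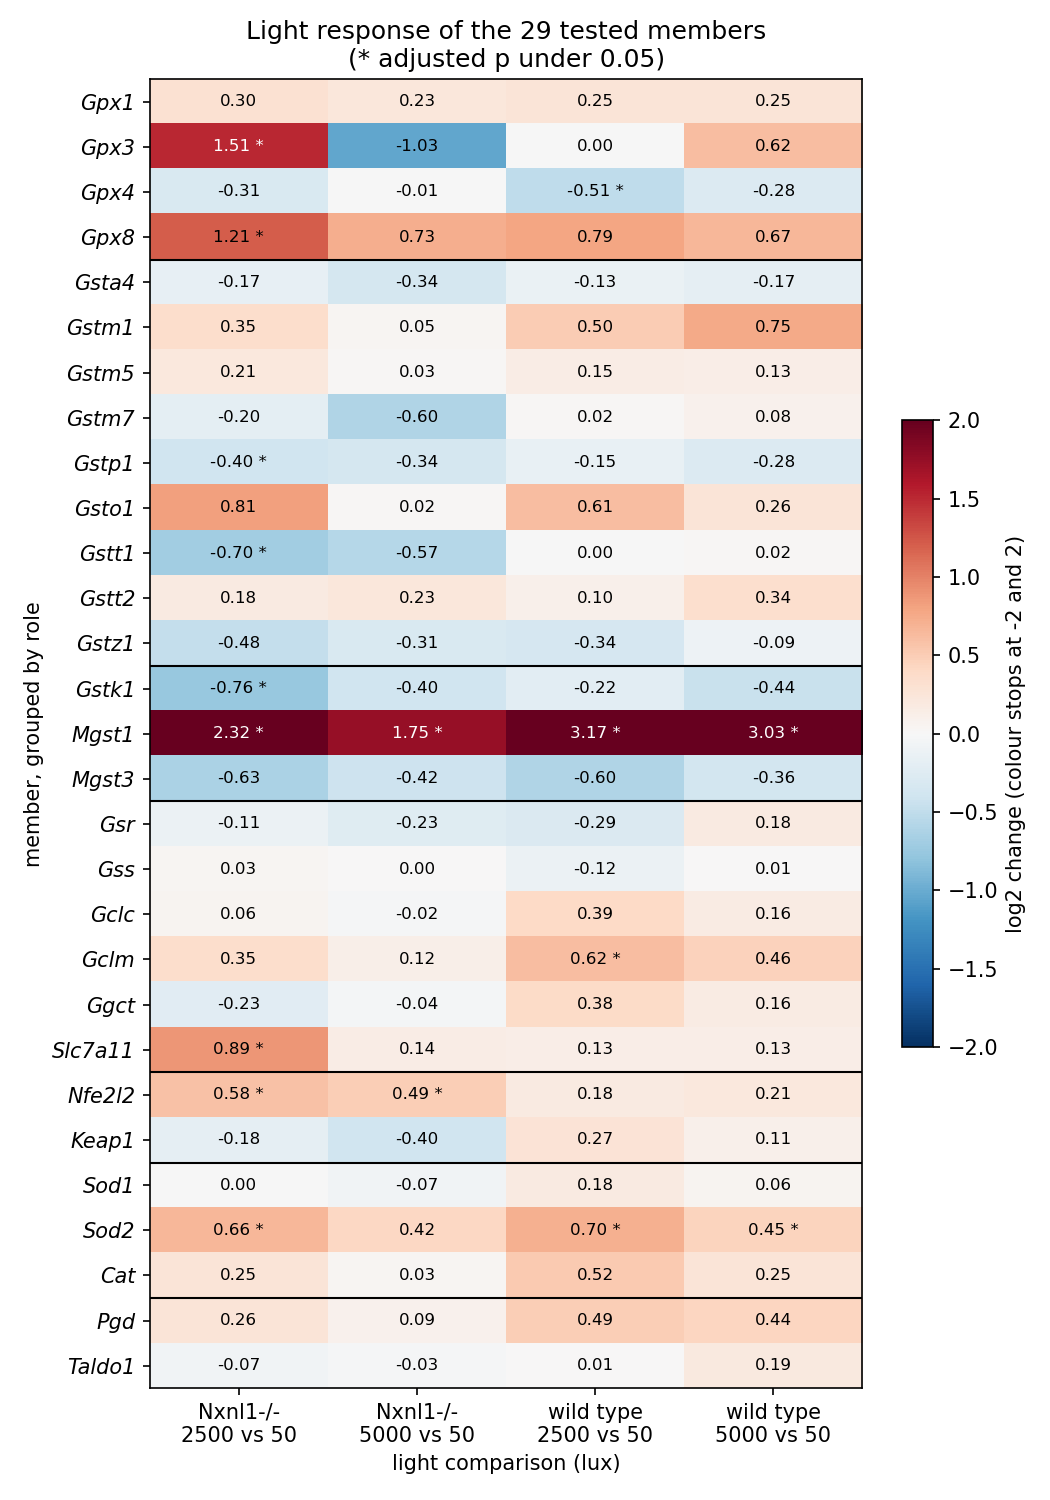
Log2 change of each of the 29 tested genes (rows, grouped by role and separated by lines) against 50 lux at 2500 and 5000 lux in Nxnl1-/- retinas (left columns) and wild-type retinas (right columns). The cell gives the change, red is higher and blue lower in bright light, an asterisk marks an adjusted p under 0.05, and the colour stops at -2 and 2. Mgst1 is the only row with 4 asterisks, and 18 rows have none.

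Among the microsomal and kappa transferases Mgst1 rose in all 4 light comparisons. A second Mgst1 probe set lay at the lowest value of the arrays, log2 2.21, on all 16 of them and was not tested. MGST1 sits in the endoplasmic reticulum and outer mitochondrial membranes, where it conjugates glutathione and reduces lipid hydroperoxides. Mgst1 lay at log2 6.44, 6.09 and 6.68 at 50 lux, 9.09, 8.38 and 8.70 at 2500 lux and 8.23 and 8.08 at 5000 lux in Nxnl1-/- retinas. In wild-type retinas Mgst1 lay at log2 5.75 and 5.09 at 50 lux, 8.17, 8.78 and 8.81 at 2500 lux and 8.57, 8.55 and 8.24 at 5000 lux. Every bright-light array was above every 50 lux array in both genotypes, and the 50 lux arrays of Nxnl1-/- retinas were all above those of wild-type retinas. In Nxnl1-/- retinas Mgst1 was 4.99-fold higher at 2500 lux (log2 change 2.32, SE 0.23, adjusted p = 1.7e-05) and 3.36-fold higher at 5000 lux (1.75, SE 0.26, adjusted p = 0.0013). In wild-type retinas it was 8.99-fold higher at 2500 lux (3.17, SE 0.26, adjusted p = 4.9e-06) and 8.18-fold higher at 5000 lux (3.03, SE 0.26, adjusted p = 6.4e-06). The change was thus smaller by 0.85 and 1.28 log2 units in Nxnl1-/- retinas, a difference between genotypes that did not pass at either dose (SE 0.35 and 0.37, adjusted p = 0.52 and 0.43).

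Gstk1, the kappa-class transferase of mitochondria and peroxisomes, fell in Nxnl1-/- retinas at 2500 lux. It lay at log2 6.44, 5.68 and 5.97 at 50 lux, 5.38, 5.15 and 5.27 at 2500 lux and 5.74 and 5.53 at 5000 lux in Nxnl1-/- retinas. In wild-type retinas Gstk1 lay at log2 5.96 and 5.87 at 50 lux, 5.93, 5.68 and 5.48 at 2500 lux and 5.33, 5.68 and 5.40 at 5000 lux. The 3 Nxnl1-/- arrays at 2500 lux were the lowest of their genotype, below all 3 at 50 lux, and were 1.7-fold lower (-0.76, SE 0.18, adjusted p = 0.0087). At 5000 lux in Nxnl1-/- retinas the change was -0.40 (adjusted p = 0.2), and in wild-type retinas it was -0.22 and -0.44 (adjusted p = 0.56 and 0.19), none of which passed. Mgst3, a microsomal transferase and peroxidase, ranged over log2 6.77 to 8.21 and passed in no comparison. Mgst2 lay at the lowest value of the arrays, log2 2.21, on all 16 of them and was not tested.

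**Figure D2:**
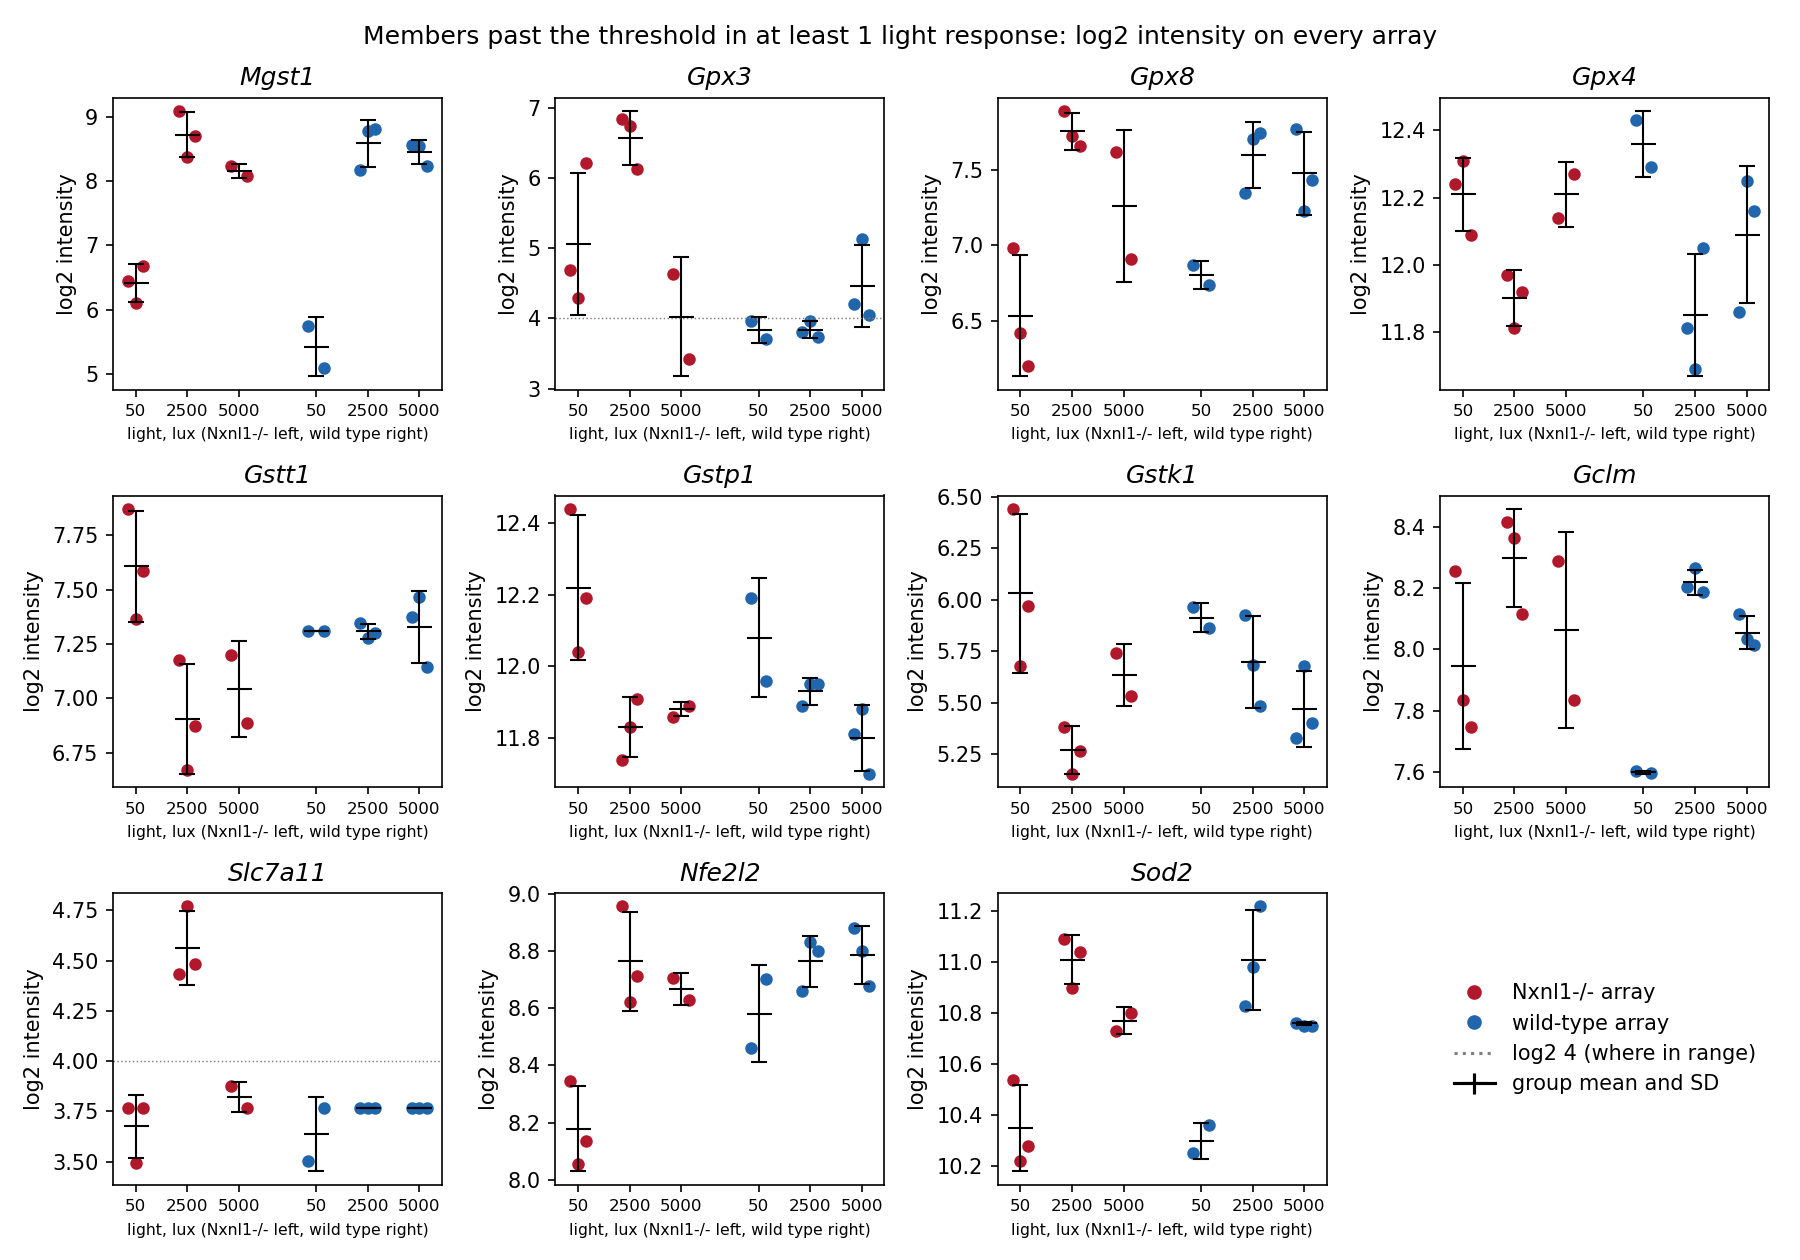
Log2 intensity (vertical axis, its own range in each panel) of the 11 genes that passed in at least 1 light comparison, on every array, by light in lux, with Nxnl1-/- arrays in red on the left and wild-type arrays in blue on the right of each panel. Bars are the group mean and SD (n = 2 or 3) and the dotted line marks log2 4 where it is in range. Mgst1 separates bright light from 50 lux in both genotypes, whereas the 3 Nxnl1-/- arrays at 2500 lux are the only ones of Slc7a11 above log2 4.

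Antioxidant response elements were looked for in the RefSeq promoters of the genes (GRCm38.p6, from 250 bases before to 50 after each start), since members of the list are known NRF2 targets. A promoter was found for 31 of the 36 genes, 40 promoters in all. The element core TGACNNNGC, read on both strands, was present in 9 of the 40 promoters, or 22.5%, and in 4071 of all 32851 promoters, or 12.4%. Of the 11 genes that passed in a light comparison 3 held it, Gclm, Mgst1 and Nfe2l2, and of the 14 that passed in none and have a promoter 5 did, namely Ggct, Gstm5, Gstm7, Pgd and Sod1. None of the cores overlapped an AP-1 element, TGANTCA, which was in 3 promoters of the list and in 7.81% of all promoters. The 3 promoters are shown because they belong to genes that rose in bright light, with the core in capitals. They lie on the plus strand at chr3:122245307-122245606 (Gclm) and chr6:138140277-138140576 (Mgst1) and on the minus strand at chr2:75704614-75704913 (Nfe2l2), and each reads 5′ to 3′ in the direction of the gene.
Gclm: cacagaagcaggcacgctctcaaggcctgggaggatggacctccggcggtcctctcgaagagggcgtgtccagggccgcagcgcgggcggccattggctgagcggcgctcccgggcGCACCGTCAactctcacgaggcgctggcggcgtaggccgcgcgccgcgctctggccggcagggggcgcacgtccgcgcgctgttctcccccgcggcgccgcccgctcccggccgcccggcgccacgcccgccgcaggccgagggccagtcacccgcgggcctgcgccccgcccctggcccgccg
Mgst1: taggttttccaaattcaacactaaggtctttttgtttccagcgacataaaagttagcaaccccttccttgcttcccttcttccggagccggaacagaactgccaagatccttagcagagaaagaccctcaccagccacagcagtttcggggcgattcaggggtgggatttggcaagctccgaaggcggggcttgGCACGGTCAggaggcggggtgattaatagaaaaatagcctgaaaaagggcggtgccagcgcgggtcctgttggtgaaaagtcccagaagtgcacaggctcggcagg
Nfe2l2: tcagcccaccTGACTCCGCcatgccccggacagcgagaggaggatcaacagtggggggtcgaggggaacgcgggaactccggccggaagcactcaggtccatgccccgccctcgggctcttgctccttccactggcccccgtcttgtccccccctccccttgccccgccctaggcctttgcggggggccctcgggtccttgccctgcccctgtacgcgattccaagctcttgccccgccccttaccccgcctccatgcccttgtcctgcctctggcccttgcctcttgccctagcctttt
Counted from the gene's start, the core lies at -134 in Gclm, at -56 in Mgst1 and at -240 in Nfe2l2. In Gclm and Mgst1 it is on the other strand and so reads GCACCGTCA and GCACGGTCA, and in Nfe2l2 it reads TGACTCCGC. A second Mgst1 promoter, at chr6:138141337-138141636, has no such core in this window. A match of letters is a description and does not show binding.

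Of the 4 tested glutathione peroxidases 2 were higher in Nxnl1-/- retinas and 1 lower in wild-type retinas after 2500 lux. Gpx8, a peroxidase of the endoplasmic reticulum membrane, lay at log2 6.98, 6.42 and 6.21 at 50 lux, 7.88, 7.72 and 7.65 at 2500 lux and 7.62 and 6.91 at 5000 lux in Nxnl1-/- retinas. In wild-type retinas Gpx8 lay at log2 6.87 and 6.74 at 50 lux, 7.35, 7.70 and 7.74 at 2500 lux and 7.77, 7.23 and 7.43 at 5000 lux. All 3 Nxnl1-/- arrays at 2500 lux were above the 3 at 50 lux, and both bright-light groups of wild-type retinas were above their 50 lux arrays. Gpx8 passed in Nxnl1-/- retinas at 2500 lux, 2.32-fold higher (log2 change 1.21, SE 0.22, adjusted p = 0.0017). The change was 0.73 in Nxnl1-/- retinas at 5000 lux and 0.79 and 0.67 in wild-type retinas at 2500 and 5000 lux, which did not pass (adjusted p = 0.072, 0.054 and 0.11).

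Gpx3, the secreted peroxidase found in plasma and extracellular fluid, varied within groups as well as between them. Gpx3 lay at log2 4.69, 4.29 and 6.21 at 50 lux, 6.84, 6.74 and 6.13 at 2500 lux and 4.63 and 3.43 at 5000 lux in Nxnl1-/- retinas. In wild-type retinas Gpx3 lay at log2 3.97 and 3.71 at 50 lux, 3.81, 3.97 and 3.73 at 2500 lux and 4.21, 5.13 and 4.05 at 5000 lux. At 2500 lux the 3 Nxnl1-/- arrays were all above the wild-type arrays, which were below log2 4, but 1 Nxnl1-/- array at 50 lux reached into the range of the Nxnl1-/- arrays at 2500 lux. Gpx3 was 2.84-fold higher in Nxnl1-/- retinas at 2500 than at 50 lux (1.51, SE 0.45, adjusted p = 0.031), with overlapping groups. That call was lost without Nxnl1-/- replicate 1 or 2 at 50 lux or replicate 1 or 2 at 2500 lux (adjusted p = 0.093 to 0.11). It was also lost when only the arrays compared were fitted and without a filter on dim probe sets (adjusted p = 0.087 and 0.11). The other 3 light changes were -1.03 in Nxnl1-/- retinas at 5000 lux and -0.00042 and 0.62 in wild-type retinas at 2500 and 5000 lux (adjusted p = 0.18, 1 and 0.52). The wild-type change at 5000 lux was 0.29 without replicate 2, the wild-type array with the most lens RNA, which had the highest wild-type level.

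Gpx4, which reduces phospholipid hydroperoxides and protects cells from ferroptosis, lay at log2 12.24, 12.31 and 12.09 at 50 lux, 11.97, 11.81 and 11.92 at 2500 lux and 12.14 and 12.27 at 5000 lux in Nxnl1-/- retinas. In wild-type retinas Gpx4 lay at log2 12.43 and 12.29 at 50 lux, 11.81, 11.69 and 12.05 at 2500 lux and 11.86, 12.25 and 12.16 at 5000 lux. The 2500 lux arrays were below the 50 lux arrays in both genotypes. The fall passed in wild-type retinas at 2500 lux, 1.43-fold lower (-0.51, SE 0.14, adjusted p = 0.032), and the change was -0.28 there at 5000 lux (adjusted p = 0.26). In Nxnl1-/- retinas it was -0.31 at 2500 and -0.01 at 5000 lux (adjusted p = 0.1 and 0.98). The wild-type call was lost without replicate 1 or 2 at 50 lux or replicate 1 or 2 at 2500 lux (adjusted p = 0.066 to 0.22). A second Gpx4 probe set did not pass there (-0.37, adjusted p = 0.15), nor did the mean of both (-0.44, adjusted p = 0.06). Gpx4 RNA is abundant in photoreceptors, and the summed intensity of 11 rod markers, all above log2 4, was 96300 to 102000 and 123000 to 128000 in Nxnl1-/- retinas at 2500 and 5000 lux, against 150000 to 162000 at 50 lux. In wild-type retinas it was 110000 to 122000 and 111000 to 120000 at 2500 and 5000 lux, against 156000 to 157000 at 50 lux. In whole retina fewer cells of a type and less RNA per cell cannot be told apart, and the part of the rods in these changes was not tested. Gpx1, the cytosolic peroxidase, ranged over log2 9.05 to 9.79 and passed in no comparison, with light changes of 0.23 to 0.30. Gpx7, another peroxidase of the endoplasmic reticulum, reached at most log2 3.83 and was not tested.

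Of the 9 tested cytosolic transferases 2 fell in Nxnl1-/- retinas at 2500 lux and 0 passed in the other light comparisons. Gstt1, of the theta class, lay at log2 7.87, 7.37 and 7.59 at 50 lux, 7.17, 6.67 and 6.87 at 2500 lux and 7.20 and 6.89 at 5000 lux in Nxnl1-/- retinas. In wild-type retinas Gstt1 lay at log2 7.31 and 7.31 at 50 lux, 7.35, 7.28 and 7.30 at 2500 lux and 7.38, 7.47 and 7.14 at 5000 lux. The wild-type groups all lay together between 7.14 and 7.47, whereas the 5 bright-light arrays of Nxnl1-/- retinas were below their 3 arrays at 50 lux. Gstt1 was 1.63-fold lower in Nxnl1-/- retinas at 2500 lux (-0.70, SE 0.15, adjusted p = 0.0061) and its change of -0.57 at 5000 lux just missed (SE 0.17, adjusted p = 0.051). In wild-type retinas the change was -0.0007 and 0.02 at 2500 and 5000 lux (adjusted p = 1 and 0.97). The difference between the genotypes' responses was -0.70 at 2500 and -0.58 at 5000 lux and did not pass (SE 0.23 and 0.24, adjusted p = 0.42 and 0.59).

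Gstp1, the pi-class transferase, lay at log2 12.44, 12.04 and 12.19 at 50 lux, 11.74, 11.83 and 11.91 at 2500 lux and 11.86 and 11.89 at 5000 lux in Nxnl1-/- retinas. In wild-type retinas Gstp1 lay at log2 12.19 and 11.96 at 50 lux, 11.89, 11.95 and 11.95 at 2500 lux and 11.81, 11.88 and 11.70 at 5000 lux. It was 1.32-fold lower in Nxnl1-/- retinas at 2500 lux, where the groups did not overlap (-0.40, SE 0.11, adjusted p = 0.025). The change was -0.34 at 5000 lux in Nxnl1-/- retinas and -0.15 and -0.28 in wild-type retinas, none of which passed (adjusted p = 0.089, 0.53 and 0.2). The call at 2500 lux was lost without Nxnl1-/- replicate 1 or 3 at 50 lux or replicate 1 or 2 at 2500 lux (adjusted p = 0.052 to 0.091).

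The other 7 tested cytosolic transferases passed in no comparison. Gsto1, an omega-class enzyme that also reduces dehydroascorbate, came nearest, with a change of 0.81 in Nxnl1-/- retinas at 2500 lux and 0.61 in wild-type retinas (adjusted p = 0.059 and 0.25). Gstm1, of the mu class, had its highest level of any array, log2 7.09, on the wild-type array with lens RNA. Its change in wild-type retinas at 5000 lux was 0.75 (adjusted p = 0.16) and 0.38 without that array. Gsta4, which conjugates the lipid peroxidation product hydroxynonenal, ranged over log2 8.66 to 9.60, and its 4 light changes lay between -0.34 and -0.13. Gstm5 ranged over log2 9.80 to 10.66, Gstm7 over 3.17 to 4.56, Gstt2 over 5.24 to 6.12 and Gstz1, which also acts in tyrosine breakdown, over 5.83 to 7.02. Gstm2 and Gstt3 reached at most log2 2.69 and 2.74 and were not tested.

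In glutathione synthesis the genotypes passed for different genes, Slc7a11 in Nxnl1-/- retinas and Gclm in wild-type retinas, both at 2500 lux. Slc7a11 encodes the exchanger that imports cystine, the source of the cysteine in glutathione. Slc7a11 lay at log2 3.77, 3.49 and 3.77 at 50 lux, 4.43, 4.77 and 4.48 at 2500 lux and 3.87 and 3.77 at 5000 lux in Nxnl1-/- retinas. In wild-type retinas Slc7a11 lay at log2 3.51 and 3.77 at 50 lux, 3.77, 3.77 and 3.77 at 2500 lux and 3.77, 3.77 and 3.77 at 5000 lux. On 10 of the 16 arrays it lay at the same value, 3.77, and the only arrays above log2 4 were the 3 from Nxnl1-/- retinas at 2500 lux. It therefore entered the test through these 3 arrays alone. There it was at least 1.48-fold higher than at 50 lux (0.89, SE 0.11, adjusted p = 0.00013), the bound being taken against log2 4. A second Slc7a11 probe set reached at most log2 2.65 on any of the 16 arrays and was not tested, so the result rests on 1 dim probe set. At 5000 lux in Nxnl1-/- retinas and at both doses in wild-type retinas the change was 0.13 to 0.14 (adjusted p = 0.48 to 0.62).

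Gclm, the modifier subunit of glutamate-cysteine ligase, lay at log2 8.26, 7.83 and 7.75 at 50 lux, 8.42, 8.36 and 8.12 at 2500 lux and 8.29 and 7.83 at 5000 lux in Nxnl1-/- retinas. In wild-type retinas Gclm lay at log2 7.60 and 7.59 at 50 lux, 8.21, 8.27 and 8.19 at 2500 lux and 8.12, 8.04 and 8.01 at 5000 lux. The wild-type bright-light arrays were all above both 50 lux arrays, whereas 1 Nxnl1-/- array at 50 lux was already within the range of the bright-light arrays. Gclm was 1.54-fold higher in wild-type retinas at 2500 lux (0.62, SE 0.16, adjusted p = 0.025). The change that did not pass was 0.46 there at 5000 lux and 0.35 and 0.12 in Nxnl1-/- retinas (adjusted p = 0.099, 0.11 and 0.66). A second Gclm probe set passed in wild-type retinas at both doses, with changes of 0.96 and 0.71 (adjusted p = 0.0039 and 0.023). The call of the brightest probe set was lost without wild-type replicate 1 or 2 at 50 lux or replicate 2 or 3 at 2500 lux (adjusted p = 0.055 to 0.13).

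The catalytic subunit Gclc had log2 changes of 0.06 and -0.02 in Nxnl1-/- retinas and of 0.39 and 0.16 in wild-type retinas at 2500 and 5000 lux, and did not pass (adjusted p = 0.82, 0.94, 0.16 and 0.64). Glutathione synthetase, Gss, ranged over log2 5.41 to 5.83, and its light changes were between -0.12 and 0.03. On 8 of the 16 arrays it lay at the same value, 5.56. A second, dimmer Gss probe set changed by 0.05 and -0.04 in Nxnl1-/- retinas and by 0.36 and 0.35 in wild-type retinas, and did not pass (adjusted p = 0.84, 0.89, 0.19 and 0.22). Glutathione reductase, Gsr, ranged over log2 5.72 to 6.84, and Ggct, which splits gamma-glutamyl peptides, over 6.49 to 7.40. Neither passed in any comparison.

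Nfe2l2 rose in Nxnl1-/- retinas at both doses. It lay at log2 8.35, 8.06 and 8.13 at 50 lux, 8.96, 8.62 and 8.71 at 2500 lux and 8.71 and 8.63 at 5000 lux in Nxnl1-/- retinas. In wild-type retinas Nfe2l2 lay at log2 8.46 and 8.70 at 50 lux, 8.66, 8.83 and 8.80 at 2500 lux and 8.88, 8.80 and 8.68 at 5000 lux. The Nxnl1-/- arrays at 50 lux were the lowest of the 16, and after bright light the ranges of the genotypes overlapped. Nfe2l2 in Nxnl1-/- retinas was 1.5-fold higher at 2500 lux (0.58, SE 0.12, adjusted p = 0.0038) and 1.4-fold higher at 5000 lux (0.49, SE 0.13, adjusted p = 0.033). In wild-type retinas the change was 0.18 and 0.21 (adjusted p = 0.45 and 0.4). The difference between genotypes in the response, 0.40 at 2500 and 0.28 at 5000 lux, did not pass (adjusted p = 0.54 and 0.67). The call at 5000 lux was lost without Nxnl1-/- replicate 2 or 3 at 50 lux or either replicate at 5000 lux (adjusted p = 0.066 to 0.14).

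Keap1, whose protein marks NRF2 for degradation, ranged over log2 7.52 to 8.31 and passed in no comparison. Its change was -0.18 and -0.40 in Nxnl1-/- retinas and 0.27 and 0.11 in wild-type retinas at 2500 and 5000 lux (adjusted p = 0.42, 0.13, 0.34 and 0.77). Nqo1, the quinone reductase that is a standard NRF2 target, stayed at or below log2 2.26 and could not be tested.

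Of the 3 tested superoxide dismutases and catalase, Sod2 alone passed by its brightest probe set. Sod2 lay at log2 10.54, 10.22 and 10.28 at 50 lux, 11.09, 10.90 and 11.04 at 2500 lux and 10.73 and 10.80 at 5000 lux in Nxnl1-/- retinas. In wild-type retinas Sod2 lay at log2 10.25 and 10.36 at 50 lux, 10.83, 10.98 and 11.22 at 2500 lux and 10.76, 10.75 and 10.75 at 5000 lux. In both genotypes every bright-light array was above every 50 lux array. Sod2 was 1.58-fold higher in Nxnl1-/- retinas at 2500 lux (0.66, SE 0.12, adjusted p = 0.0013) and its change of 0.42 at 5000 lux just missed (SE 0.13, adjusted p = 0.053). It was 1.63-fold higher in wild-type retinas at 2500 lux (0.70, SE 0.13, adjusted p = 0.0033) and 1.37-fold higher at 5000 lux (0.45, SE 0.13, adjusted p = 0.041).

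The probe sets of Sod2 differed. A second bright one had log2 changes of 0.60 in Nxnl1-/- retinas and 0.38 in wild-type retinas at 2500 lux (adjusted p = 0.0026 and 0.072), and another one of 0.10 and 0.08 (adjusted p = 0.58 and 0.76). The wild-type call at 5000 lux was lost when any 1 of 8 arrays was left out, the 2 wild-type arrays at 50 lux, the 3 at 5000 lux and the 3 Nxnl1-/- arrays at 2500 lux (adjusted p = 0.051 to 0.27). Sod1, the cytosolic enzyme, ranged over log2 11.43 to 11.80, and its light changes lay between -0.07 and 0.18. A second Sod1 probe set rose by 0.62 in Nxnl1-/- retinas at 2500 lux (adjusted p = 0.0029), where the brightest had a change of -0.0029. Catalase, Cat, had log2 changes of 0.25 and 0.03 in Nxnl1-/- retinas and of 0.52 and 0.25 in wild-type retinas, none of which passed (adjusted p = 0.36, 0.94, 0.12 and 0.52). Sod3, the extracellular dismutase, reached at most log2 2.41 and was not tested.

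The pentose phosphate enzymes did not pass by their brightest probe sets. Pgd, which makes NADPH, had log2 changes of 0.26 and 0.09 in Nxnl1-/- retinas and of 0.49 and 0.44 in wild-type retinas at 2500 and 5000 lux (adjusted p = 0.24, 0.73, 0.064 and 0.11). A dimmer Pgd probe set, 1 of 4, rose by 0.43 in wild-type retinas at 2500 lux (adjusted p = 0.029). Taldo1, transaldolase of the sugar-rearranging branch, had changes of -0.07 and -0.03 in Nxnl1-/- retinas and of 0.01 and 0.19 in wild-type retinas.

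Between the bright doses no gene of the list passed. For 5000 against 2500 lux, 0 of 29 passed in Nxnl1-/- retinas, beside 0.119% of all genes, and 0 of 29 in wild-type retinas, beside 0%. At an unadjusted p under 0.05 there were 4 and 1. Gpx3 and Slc7a11 came nearest, both in Nxnl1-/- retinas. Gpx3 lay at 4.63 and 3.43 at 5000 lux, against 6.84, 6.74 and 6.13 at 2500 lux, a log2 difference of -2.54 (SE 0.50, adjusted p = 0.081). Slc7a11 differed by -0.74 (SE 0.13, adjusted p = 0.054).

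Between genotypes at the same dose, Gpx3 and Slc7a11 were higher in Nxnl1-/- retinas at 2500 lux, and no other gene of the list passed at any dose. At 2500 lux 2 of the 29 genes passed, beside 0.137% of all genes, and 1 of the 2, Slc7a11, was tested only because of its 3 Nxnl1-/- arrays at that dose. At 50 lux 0 passed, beside 0.403%, and at 5000 lux 0, beside 0.00916%. Averaged over the doses 0 passed, beside 0.0275%. At an unadjusted p under 0.05 there were 5 at 50 lux, 5 at 2500 lux, 1 at 5000 lux and 4 for the average. The median difference over the 29 genes was 0.12 at 50 lux, 0.00801 at 2500 lux and -0.05 at 5000 lux, beside 0.12, -0.02 and 0.00124 over all genes.

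Gpx3 was at least 5.94-fold higher at 2500 lux, at log2 6.84, 6.74 and 6.13 in Nxnl1-/- retinas against 3.81, 3.97 and 3.73 in wild-type retinas (2.73, SE 0.45, adjusted p = 0.041). This call was lost when any 1 of 11 arrays was left out (adjusted p = 0.056 to 0.23): all 6 of the arrays compared, Nxnl1-/- replicate 1 at 50 lux, both wild-type arrays at 50 lux, and wild-type replicates 1 and 3 at 5000 lux. It was also lost without a filter on dim probe sets, with a filter at log2 6 and with the replicate number as a block (adjusted p = 0.18, 0.077 and 0.081). The difference was 1.22 at 50 lux and -0.43 at 5000 lux (adjusted p = 0.29 and 1). Lens markers also differed between these groups: in replicate order they summed to 204, 6130 and 190 in Nxnl1-/- retinas at 2500 lux, against 76.6, 69.5 and 68.4 in wild-type retinas. On the wild-type array with the most lens RNA, replicate 2 at 5000 lux, Gpx3 lay at 5.13, against 4.21 and 4.05 on the other arrays of its group, and without that array the difference at 5000 lux was -0.10. In Nxnl1-/- retinas at 50 lux, in replicate order, lens markers summed to 6892, 2251 and 1737, where Gpx3 lay at 4.69, 4.29 and 6.21. At 5000 lux in Nxnl1-/- retinas lens markers summed to 108.4 and 4225, where Gpx3 lay at 4.63 and 3.43. At 2500 lux in Nxnl1-/- retinas Gpx3 lay at 6.74 on the array with the most lens RNA, against 6.84 and 6.13 on the others. The part of lens RNA in the Gpx3 difference was not tested.

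Slc7a11 was at least 1.48-fold higher at 2500 lux, at log2 4.43, 4.77 and 4.48 in Nxnl1-/- retinas and 3.77 on all 3 wild-type arrays (0.79, SE 0.11, adjusted p = 0.02). The call was lost without wild-type replicate 1 or 2 or Nxnl1-/- replicate 2 or 3 at that dose (adjusted p = 0.082 to 0.14). It was also lost when only the arrays compared were fitted (adjusted p = 0.38). The wild-type SD at that dose was 0, since the arrays shared 1 low value. The difference was 0.04 at 50 lux and 0.05 at 5000 lux (adjusted p = 0.9 and 1).

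Without bright light the 5 genes with an unadjusted p under 0.05, none of which passed, were Gpx3, Mgst1, Keap1, Pgd and Nfe2l2. At 50 lux Mgst1 lay at log2 6.44, 6.09 and 6.68 in Nxnl1-/- retinas and 5.75 and 5.09 in wild-type retinas, a difference of 0.99 (SE 0.26, adjusted p = 0.14). Nfe2l2 was the one of these that lay lower in Nxnl1-/- retinas, by a log2 difference of -0.40 (SE 0.13, adjusted p = 0.22). Keap1 differed by 0.46 and Pgd by 0.42 (adjusted p = 0.24 and 0.26). Marker sums were also not equal without bright light. Lens markers summed to 1740 to 6890 in Nxnl1-/- retinas against 74.9 to 170 in wild-type retinas, microglia and macrophage markers to 459 to 685 against 329 to 372, and reactive glia markers to 4400 to 5250 against 3740 to 3780. Of the 14 tested reactive glia markers 3 passed as higher in Nxnl1-/- retinas and 0 as lower, with a median difference of 0.79, beside 0.403% of all genes in either direction. Of the 8 tested lens markers and the 7 tested microglia and macrophage markers 0 passed. The part of these cell types in the differences of the 5 genes was not tested.

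**Figure D3:**
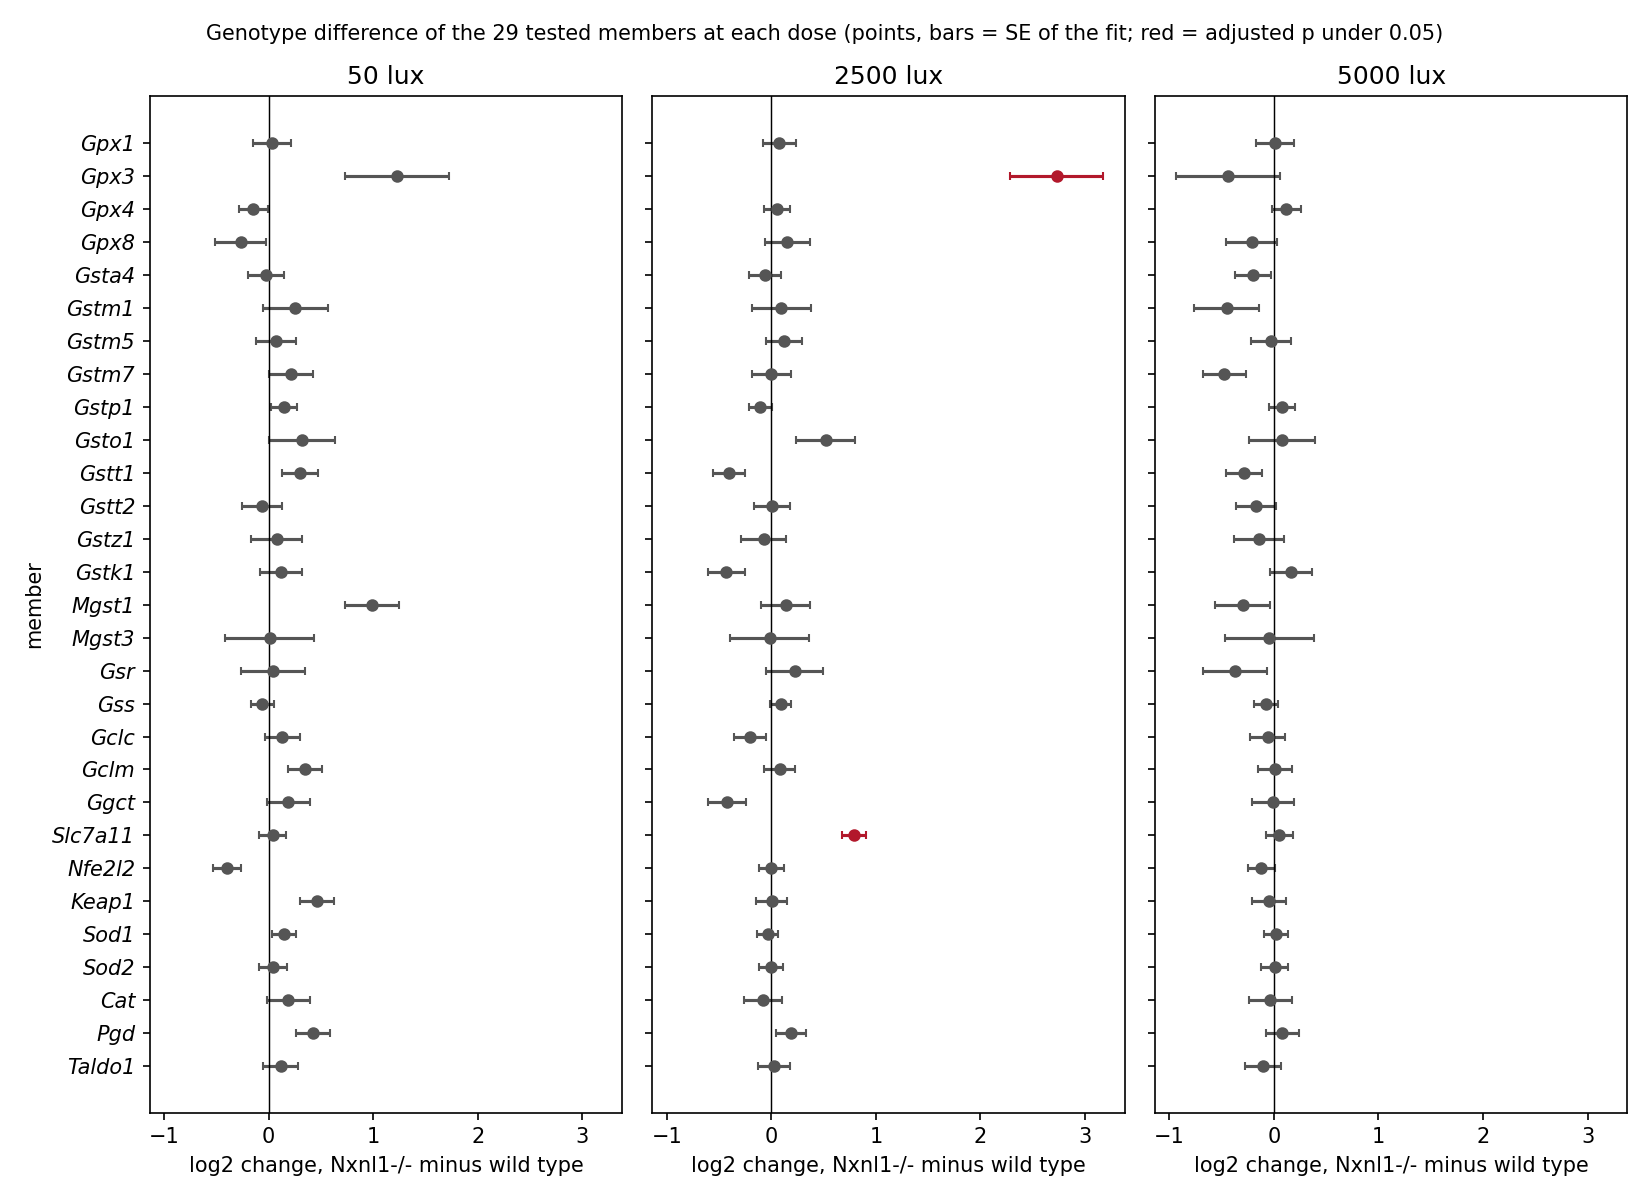
Log2 difference, Nxnl1-/- minus wild type, of the 29 tested genes (rows) at 50, 2500 and 5000 lux (panels), with the SE of the fit as bars and an adjusted p under 0.05 in red. Only Gpx3 and Slc7a11 at 2500 lux are red. Gpx3 at 2.73 is the farthest from 0 in any panel.

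Whether the light response itself depended on genotype was tested directly. For the difference of the 2500 lux responses 0 of 29 genes passed, beside 0.0641% of all genes, and for that of the 5000 lux responses 0, beside 0.0366%. At an unadjusted p under 0.05 there were 6 and 5. Slc7a11 had the smallest adjusted p, with a response larger in Nxnl1-/- retinas by 0.76 at 2500 lux (SE 0.17, adjusted p = 0.22). For Gpx3 the difference was 1.51 at 2500 and -1.66 at 5000 lux (adjusted p = 0.54 and 0.59). The light changes that passed in 1 genotype and not in the other are therefore not shown to differ between genotypes.

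The wider redox network was described through 6 further lists, from each of which the 3 genes with the smallest p in the light comparisons are named. At 2500 lux the lists' median log2 changes lay between -0.17 and 0.24 in Nxnl1-/- retinas and between 0.05 and 0.34 in wild-type retinas, beside -0.08 and 0.04 over all genes, and the shares of all genes that passed are those given above. Of 18 other glutathione genes tested, 4 rose in Nxnl1-/- retinas at 2500 lux and 2 at 5000 lux, against 6 and 6 in wild-type retinas, and 0 fell. Glo1, which clears methylglyoxal with glutathione, changed by 0.94 and 0.76 in Nxnl1-/- retinas and by 0.84 and 1.00 in wild-type retinas, passing in all 4 comparisons. Clic1, a glutathione transferase relative known as a chloride channel, changed by 1.77, 1.19, 1.95 and 1.87 in that order and also passed in all 4. Lap3, a peptidase that splits cysteinylglycine, had changes of 0.90, 0.47, 0.80 and 0.71 and missed only in Nxnl1-/- retinas at 5000 lux (adjusted p = 0.13).

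Of 20 thioredoxin and peroxiredoxin genes, 3 rose and 1 fell in Nxnl1-/- retinas at 2500 lux and 0 and 1 at 5000 lux, against 3 and 0, and 2 and 1, in wild-type retinas. Txnrd3, a thioredoxin and glutathione reductase, rose 2.93-fold in Nxnl1-/- retinas at 2500 lux and at least 2.43- and 2.04-fold in wild-type retinas at 2500 and 5000 lux, with a change of 0.36 in Nxnl1-/- retinas at 5000 lux (adjusted p = 0.48). Txnrd1, the cytosolic thioredoxin reductase, rose by 0.55 in Nxnl1-/- retinas at 2500 lux and by 0.61 in wild-type retinas at 5000 lux. Its other changes were 0.04 in Nxnl1-/- retinas at 5000 lux and 0.48 in wild-type retinas at 2500 lux (adjusted p = 0.91 and 0.077). Sesn3, a sestrin, fell in Nxnl1-/- retinas at 2500 lux (-0.50, adjusted p = 0.018), and had changes of -0.46, -0.39 and -0.41 in the other comparisons (adjusted p = 0.061, 0.11 and 0.11).

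Of 15 other genes of NADPH supply, 3 rose and 3 fell in Nxnl1-/- retinas at 2500 lux and 2 and 2 at 5000 lux, against 3 and 2 at each dose in wild-type retinas. Aldh1l1, a folate enzyme that is also a marker of glia, rose 5- and 3.92-fold in Nxnl1-/- retinas and 3.96- and 5.15-fold in wild-type retinas. Nadk2, the mitochondrial NAD kinase, fell 3.96- and 2.43-fold in Nxnl1-/- retinas and 3.05- and 2.64-fold in wild-type retinas. Idh2, the mitochondrial isocitrate dehydrogenase, rose by 0.92, 0.63, 0.73 and 0.92.

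Of 17 other NRF2 target genes, some of which are on the other lists too, 7 rose and 1 fell in Nxnl1-/- retinas at 2500 lux and 2 and 2 at 5000 lux, against 4 and 1, and 5 and 0, in wild-type retinas. Hmox1, the inducible heme oxygenase, lay at log2 2.88, 2.63 and 2.88 at 50 lux, 6.02, 6.25 and 6.72 at 2500 lux and 4.60 and 3.92 at 5000 lux in Nxnl1-/- retinas. In wild-type retinas Hmox1 lay at log2 2.63 and 2.63 at 50 lux, 4.67, 5.21 and 5.52 at 2500 lux and 5.28, 4.54 and 4.83 at 5000 lux. All 50 lux arrays were below log2 4 and all bright-light arrays but Nxnl1-/- replicate 2 at 5000 lux were above it, so that Hmox1 entered the test through bright light alone. Hmox1 was at least 5.02- and 1.2-fold higher in Nxnl1-/- retinas at 2500 and 5000 lux and at least 2.2- and 1.84-fold higher in wild-type retinas (adjusted p = 1.2e-06, 0.007, 8.1e-05 and 0.00018). It was lower in Nxnl1-/- retinas at 5000 than at 2500 lux, by a log2 difference of -2.07 (SE 0.29, adjusted p = 0.016), the 1 gene of these lists that passed between the bright doses. Akr1b8, an aldehyde reductase, rose at least 3.26-fold in Nxnl1-/- retinas at 2500 lux and at least 1.29- and 1.65-fold in wild-type retinas. It too was below log2 4 on every 50 lux array and entered the test through bright light alone. Me1, the cytosolic malic enzyme that makes NADPH, fell in Nxnl1-/- retinas at both doses (-0.87 and -0.70) and in wild-type retinas at 2500 lux (-0.51).

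Of 11 NRF2 partners and regulators, 2 rose and 1 fell in Nxnl1-/- retinas at 2500 lux, and 1 rose and 1 fell in each of the other light comparisons. Nfe2l1, a relative of NRF2 that controls proteasome genes, fell in all 4, with log2 changes of -0.63 and -1.02 in Nxnl1-/- retinas and of -0.43 and -0.36 in wild-type retinas. Trim21, which is also an interferon-induced antibody receptor, rose in all 4, by at least 3.06- and 1.89-fold in Nxnl1-/- retinas and 2.12- and 1.73-fold in wild-type retinas. It was below log2 4 on every 50 lux array and entered the test through bright light alone. Sqstm1, the KEAP1-binding autophagy receptor p62, rose in Nxnl1-/- retinas at 2500 lux (0.56, adjusted p = 0.031). Of 12 further genes of superoxide and peroxide handling, 4 rose in Nxnl1-/- retinas at 2500 lux and 2 at 5000 lux, against 3 and 3 in wild-type retinas, and 0 fell. The metallothionein Mt2 rose by 2.11 and 1.57 in Nxnl1-/- retinas and by 2.16 and 2.08 in wild-type retinas, and Mt1 by 1.61, 1.01, 1.59 and 1.44. Cybb, a subunit of the phagocyte NADPH oxidase, rose at least 1.06-fold in Nxnl1-/- retinas at 2500 lux (adjusted p = 0.0013). It exceeded log2 4 on the 3 arrays of that group and on 1 wild-type array at 2500 lux, and entered the test through these arrays alone.

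**Figure D4:**
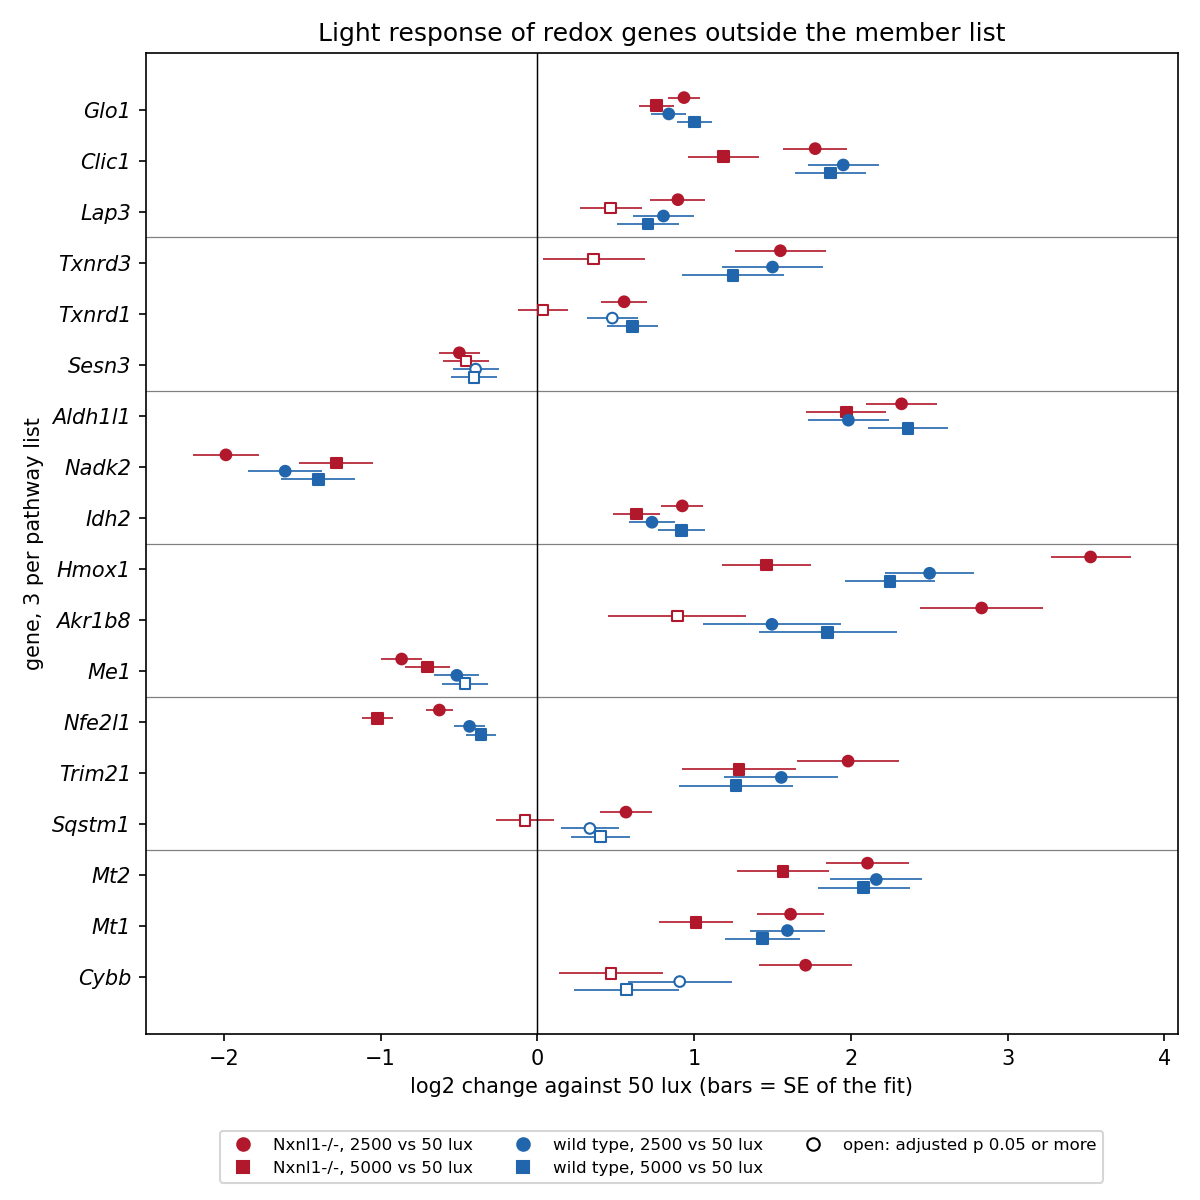
Log2 change against 50 lux (horizontal axis, bars = SE of the fit) of the 3 named genes of each of 6 redox lists (rows, lists separated by lines) at 2500 lux (circles) and 5000 lux (squares) in Nxnl1-/- retinas (red) and wild-type retinas (blue), with open symbols for an adjusted p of 0.05 or more. Values of genes below log2 4 at 50 lux are fitted changes and not bounds. Hmox1 in Nxnl1-/- retinas at 2500 lux lies farthest to the right, and Nadk2 lies left of 0 at every point.

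Cell type markers moved with the light comparisons as well, some lists with higher and some with lower sums in bright light. Reactive glia markers, 14 of 16 above log2 4 with Lif and Nes never above it, summed to 32600 to 34400 and 22100 to 24400 in Nxnl1-/- retinas at 2500 and 5000 lux, against 4400 to 5250 at 50 lux. In wild-type retinas they summed to 20400 to 31500 and 24800 to 25600, against 3740 to 3780 at 50 lux. Microglia and macrophage markers, 7 of 13 above log2 4, summed to 2830 to 3270 and 1740 to 1920 in Nxnl1-/- retinas, against 459 to 685 at 50 lux, and to 1730 to 3180 and 1970 to 2560 in wild-type retinas, against 329 to 372. Of the 7 tested markers, 2 rose and 1 fell in Nxnl1-/- retinas at 2500 lux and 2 rose and 0 fell at 5000 lux. In wild-type retinas 5 rose at 2500 lux and 3 at 5000 lux, and 0 fell. Aif1, C1qc, Ptprc, Itgam and Trem2 never exceeded log2 4. Müller glia markers, 13 of 13, summed to 57300 to 59100 and 50300 to 57400 in Nxnl1-/- retinas, against 48400 to 51700 at 50 lux, and to 56200 to 56800 and 54000 to 58100 in wild-type retinas, against 46500 to 48600. Of the 13 markers, 2 rose and 4 fell in Nxnl1-/- retinas at 2500 lux and 1 and 4 at 5000 lux. In wild-type retinas 3 rose and 4 fell at 2500 lux and 3 and 3 at 5000 lux. Cone markers, 8 of 9 above log2 4, summed to 9300 to 10100 and 11700 to 13900 in Nxnl1-/- retinas, against 14700 to 15600 at 50 lux, and to 9970 to 13000 and 12000 to 12800 in wild-type retinas, against 13100 to 13600, and 5 of the 8 fell and 1 rose in Nxnl1-/- retinas at 2500 lux, against 2 and 1 in each of the other light comparisons. Amacrine and ganglion cell markers, 13 of 13, summed to 14400 to 14800 and 8230 to 13200 in Nxnl1-/- retinas, against 15700 to 21200 at 50 lux, and to 13100 to 16000 and 10100 to 15000 in wild-type retinas, against 15600 to 16200, and 9 of the 13 fell in Nxnl1-/- retinas at 5000 lux. Pigment epithelium markers, 10 of 14, summed to 3750 to 7800 and 4770 to 4850 in Nxnl1-/- retinas, against 6460 to 12600 at 50 lux, and to 5940 to 10500 and 3390 to 5060 in wild-type retinas, against 10200 to 14100, and 7 of the 10 fell in wild-type retinas at 5000 lux. Of 4 blood markers with a probe set, Hba-a1, Alas2 and Slc4a1 were never above log2 4. The 1 that was tested passed as higher in all 4 light comparisons. The 4 summed to at most 23.2 on the 50 lux arrays, where each was at least at the lowest intensity, 4.62. The tested marker was therefore below log2 4, an intensity of 16, at 50 lux and entered the test through bright light alone. In Nxnl1-/- retinas at 2500 lux the 4 summed to at most 28.2, so it was below log2 4 there too. Its log2 changes, fitted values and not bounds, were 0.67 and 1.02 in Nxnl1-/- retinas and 0.70 and 0.76 in wild-type retinas at 2500 and 5000 lux. The part of these cell types in the changes of the genes described here was not tested.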

How the data were processed

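Total RNA of 16 mouse retinas or pools was hybridised to Affymetrix mouse expression arrays. The deposited values of 45037 probe sets are linear intensities, which the authors made with GCRMA, per the submitters' processing notes, which name no version. GCRMA gives dim probe sets shared low values, and 30.9 to 31.5% of each array lay at the lowest, 4.62. The deposited intensities were turned into log2 here. Of the probe sets 34945 have 1 gene symbol in GEO's platform annotation and 932 several, which were not named. Probe sets above log2 4 on at least 2 arrays (23320) were fitted with limma 3.58.1 in R 4.3.3: 6 group means over 16 arrays, lmFit, eBayes, 12 contrasts, Benjamini-Hochberg adjustment over all probe sets, threshold 0.05. The number of arrays limits the precision. The procedure was checked on simulated data.

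Genes of the list that passed with groups that do not overlap get every array's value, up to 14 by size of change, and the others a range. Where every array of 1 group is at or below log2 4 a fold is a bound, and there is none where both means are. The genes, lists and tests were chosen with earlier results of these data known. Alternatives left out each array in turn and changed 10 other settings. Promoters and their coordinates are from RefSeq (GRCm38.p6).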

Additional observations from a re-analysis of the deposited data

How the results depend on the processing

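Of 491 values of the 19 gene results that passed, recomputed with 1 array left out or 1 of 10 other settings, 428 stayed past the threshold, 63 did not and 0 changed sign. The 10 results past it in every setting that tested them were the 4 of Mgst1 and those of Gpx8, Gstt1, Gstk1, Slc7a11, Nfe2l2 and Sod2 in Nxnl1-/- retinas at 2500 lux. Over the arrays left out, the count of genes that passed ranged from 7 to 10 (9 with all arrays) and from 1 to 4 (2) in Nxnl1-/- retinas at 2500 and 5000 lux, from 2 to 6 (4) and from 1 to 3 (2) in wild-type retinas, from 0 to 1 (0) between the bright doses in Nxnl1-/- retinas and from 0 to 2 (2) between genotypes at 2500 lux, and was 0 throughout in the other 6 comparisons. The count fell to 2 in wild-type retinas at 2500 lux without either 50 lux array or without replicate 2 at 2500 lux, and to 1 at 5000 lux without either 50 lux array, any 5000 lux array or any Nxnl1-/- array at 2500 lux. In Nxnl1-/- retinas at 5000 lux it was 4 without replicate 1 at 50 or at 5000 lux, and 1 without replicate 3 at 50 lux or replicate 2 at 5000 lux. Between the bright doses 1 gene, Gpx3 or Slc7a11, passed without Nxnl1-/- replicate 3 at 50 lux, replicate 1 at 5000 lux or wild-type replicate 3 at 2500 lux. Over all probe sets, 2663 passed in Nxnl1-/- retinas at 5000 lux, against 182 with only the arrays compared, 730 with array weights, 576 without replicate 2 at 5000 lux and 4613 with the replicate block. In wild-type retinas 2744 and 2447 passed at 2500 and 5000 lux, against 1112 and 1001 without replicate 1 at 50 lux, and 5512 at 5000 lux with array weights. Fitting only the arrays compared gave 2 in wild-type retinas at 2500 lux, 1 in Nxnl1-/- retinas at 5000 lux and 1 between genotypes at 2500 lux. Without a filter on dim probe sets there were 2 and 1 in wild-type retinas at 2500 and 5000 lux, 1 in Nxnl1-/- retinas at 5000 lux and 1 between genotypes at 2500 lux. A filter at log2 6 gave 4 in Nxnl1-/- retinas at 5000 lux and 0 between genotypes at 2500 lux, where Slc7a11 was no longer tested. Array weights gave 7 in wild-type and 1 in Nxnl1-/- retinas at 5000 lux, and quantile normalization 4 in Nxnl1-/- retinas at 5000 lux (3 higher, 1 lower). Median centring gave 1 in wild-type retinas at 5000 lux, 3 in Nxnl1-/- retinas at 5000 lux (2 higher, 1 lower) and 1 between the bright doses, as did the mean over a gene's probe sets, which also took Sod2 in wild-type retinas below the threshold (adjusted p = 0.28 at 2500 lux). The cause of these moves was not tested. The labels do not say that a replicate number marks a shared batch, so the arrays were not treated as paired. Deviations of same-numbered arrays correlated at -0.0863 to 0.693, 12 of 21 over 0.1. Between genotypes they correlated at 0.354 and 0.462 at 50 lux, 0.256, 0.0452 and 0.359 at 2500 lux and 0.693 and 0.471 at 5000 lux. In the light comparisons against 50 lux they correlated at -0.0863 to 0.411. That 13 of 16 arrays correlated best with their own number is a hint of a shared replicate effect from the data, not from the design. With the replicate number as a block, 11 and 5 passed in Nxnl1-/- retinas at 2500 and 5000 lux, 6 and 3 in wild-type retinas, and 1 between genotypes at 2500 lux. The block ended the calls of Gpx3 between genotypes at 2500 lux (adjusted p = 0.081) and Sod2 in wild-type retinas at 5000 lux (adjusted p = 0.063). It added Gpx8 and Cat in wild-type retinas at 2500 lux, Gstt2 and Gclm there at 5000 lux, Gsto1 and Gstz1 in Nxnl1-/- retinas at 2500 lux, and Gstm7, Gstt1 and Sod2 there at 5000 lux (adjusted p = 0.015 to 0.048). Of these, Gstm7 lay near log2 4, at the same value, 3.98, on 9 of the 16 arrays. In Nxnl1-/- retinas it lay at 4.56, 3.98 and 3.98 at 50 lux and at 3.98 and 3.17 at 5000 lux.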

Other observations

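Replicate 1 had the highest level of its group in all 6 groups for Gstt2, Gstz1, Mgst3 and Gsr, 4 of the 29 tested genes, and for 552 of 10916 genes, or 5.06%. Mgst3 lay at log2 8.21, 8.01 and 7.57 at 50 lux, 8.02, 6.77 and 7.12 at 2500 lux and 8.09 and 6.93 at 5000 lux in Nxnl1-/- retinas. In wild-type retinas Mgst3 lay at log2 8.01 and 7.83 at 50 lux, 8.04, 6.78 and 7.14 at 2500 lux and 7.91, 7.37 and 7.37 at 5000 lux. Gsr lay at log2 6.60, 6.58 and 6.31 at 50 lux, 6.77, 6.16 and 6.22 at 2500 lux and 6.65 and 5.87 at 5000 lux in Nxnl1-/- retinas. In wild-type retinas Gsr lay at log2 6.46 and 6.45 at 50 lux, 6.84, 5.72 and 5.92 at 2500 lux and 6.84, 6.45 and 6.61 at 5000 lux.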
